A study of Mus musculus with 6 samples.

Results

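A set of 10 clustered homeobox genes, Hoxa3, Hoxa5, Hoxa7, Hoxa9 and Hoxa10 of the HoxA cluster and Hoxb2, Hoxb3, Hoxb4, Hoxb5 and Hoxb6 of the HoxB cluster, were followed in hematopoietic progenitors from Tifab KO and Tifab WT marrow. They were chosen by gene name, with earlier results of these data known. All 10 had a probe set of their own among the 22180 genes of the array. The cells were LSK cells, the bone marrow fraction without lineage markers and with Sca1 and cKit on its surface, which holds the hematopoietic stem cells and the multipotent progenitors. They came from mice carrying transplanted marrow of genotype Tifab-/- (called Tifab KO here, 3 arrays) or Tifab+/+ (Tifab WT, 3 arrays), with 3 mice per group per the labels. Recipients of both groups were Boy/J mice that had received lethal irradiation of 7.0 Gy and then 4.75 Gy 3 hours later. The labels say 3 months, which could be the age of the mice or the time since transplantation, and do not say whether cells of the host were kept out of the sort. Tifab encodes a relative of TIFA, an adaptor of the TRAF6 pathway, and the series asks how its loss alters the expression profile of LSK cells after engraftment.

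Hox genes encode homeodomain transcription factors that lie in clusters, in an order that matches the order in which they are switched on along the body axis of the embryo. In blood, HoxA and HoxB genes are known for being most active in stem and early progenitor cells and for being switched off as cells mature. Their proteins bind DNA together with TALE homeodomain cofactors of the MEIS and PBX families, MLL complexes keep the clusters open, and Polycomb complexes keep them closed.

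The regulatory stretch in front of a gene is shown for a pair of them. Hoxa9 had the highest signal of the 10 by the probe sets used, and Hoxb4 was the only one whose groups did not overlap. It was higher in Tifab KO arrays, and 7.75% of all genes were higher without overlap, so this does not set Hoxb4 apart. Each stretch is the 250 bases before the annotated start, from RefSeq (GRCm38.p6), written 5′ to 3′ on the gene's own strand: chr6:52227371-52227620, minus strand, for Hoxa9 and chr11:96318017-96318266, plus strand, for Hoxb4. Capitals mark matches to the motifs searched.
Hoxa9: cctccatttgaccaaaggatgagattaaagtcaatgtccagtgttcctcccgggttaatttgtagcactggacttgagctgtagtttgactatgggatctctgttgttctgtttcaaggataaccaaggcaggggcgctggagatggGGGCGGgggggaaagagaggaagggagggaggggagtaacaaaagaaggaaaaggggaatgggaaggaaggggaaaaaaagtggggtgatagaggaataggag
Hoxb4: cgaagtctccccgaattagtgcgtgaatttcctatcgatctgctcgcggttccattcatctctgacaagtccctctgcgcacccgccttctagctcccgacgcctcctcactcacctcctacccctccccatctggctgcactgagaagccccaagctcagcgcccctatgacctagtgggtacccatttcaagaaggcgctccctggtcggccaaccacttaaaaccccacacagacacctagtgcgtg

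Promoters of 6 of the 10 genes were matched in RefSeq, 5 from HoxA and Hoxb4 from HoxB, and their letters were searched on both strands for 6 motifs. The E-box was searched as CACGTG. The NF-Y box was searched as CCAAT. The TATA box was searched as TATAAA. The GC box, bound by SP1, was searched as GGGCGG. The site favoured by MEIS and PKNOX proteins was searched as TGACAG. A joint site of PBX and HOX proteins was searched as TGATTNAT. The Hoxa9 stretch held the GC box once, starting 103 bases before the start, and Hoxa10 held it once in 1 of its 2 listed promoters. Hoxa3 held the MEIS site once and Hoxa5 the NF-Y box once, and the other Hoxa10 promoter held the NF-Y box and the TATA box once each. Hoxa7 and Hoxb4 held none of the 6, and no matches overlapped. Among all 32841 promoter stretches of this length, 33.9% held the NF-Y box, 32.7% the GC box, 15.9% the MEIS site, 12.4% the TATA box, 6.02% the E-box and 2.83% the joint site, on the same terms. The 7 promoters had 49.6% to 64.8% G and C, beside a median of 52.4% over all stretches.

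Values are log2 signals of probe sets, on a scale where 1 unit is a doubling. In these bulk samples, fewer cells of a type and less RNA per cell cannot be told apart. Array medians lay between 4.05 and 4.10. Across the 22180 genes, arrays correlated at 0.985 to 0.986 among Tifab KO, 0.976 to 0.979 among Tifab WT and 0.975 to 0.983 between them. The Tifab probe set read 5.21, 5.12 and 5.26 in Tifab KO and 4.99, 5.37 and 5.53 in Tifab WT arrays (log2 difference -0.10 ± 0.18, SE, limma adjusted p = 0.885), so it does not check the labels. The sources used here do not say whether its probes lie inside the deletion. All 8 LSK and stem cell markers with a probe set of their own, Kit, Cd34, Flt3, Slamf1, Procr, Mecom, Ptprc and Cd48, lay above 4.13 in Tifab KO and 4.11 in Tifab WT, the 95th percentile of 1105 olfactory receptor genes, which blood cells should not use. Ly6a, which encodes Sca1, was not analysed here. Markers of other cells were measured too: 8 of 9 neutrophil and monocyte genes, 5 of 6 B and plasma cell genes, 4 of 4 erythroid and megakaryocyte genes, 4 of 6 endothelial genes, 3 of 7 stromal genes and 2 of 7 T and NK cell genes lay above that level in both groups. The mean of the B and plasma cell markers ranged from 6.28 to 6.84 in Tifab KO and from 5.76 to 6.93 in Tifab WT arrays, and that of the neutrophil and monocyte markers from 7.15 to 7.46 in Tifab KO and from 7.15 to 7.64 in Tifab WT arrays. Of all these markers of other cells, 1 had an unadjusted limma p under 0.05: Mmp8, a neutrophil granule protease gene, read 5.98, 6.21 and 5.22 in Tifab KO arrays, against 6.73, 6.50 and 6.73 in Tifab WT arrays. Its groups did not overlap, with a difference of -0.85 ± 0.24 (SE, adjusted p = 0.354 in limma), while S100a8 and S100a9 of the same list had -0.06 and -0.01. The list was mixed: 3 of its 9 genes had a positive difference and 6 a negative one, from -0.85 to 0.33, with a median of -0.06. The part of these markers in the values below was not tested.

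Signal varied with the position of a gene in its cluster, with a summit inside each cluster in both genotypes. In HoxA, the mean signal was 4.29 in Tifab KO and 4.41 in Tifab WT arrays at Hoxa3, 5.56 and 5.66 at Hoxa5, 6.38 and 6.47 at Hoxa7, and 7.23 and 7.11 at Hoxa9. One gene further along it was 4.45 in Tifab KO and 4.67 in Tifab WT arrays at Hoxa10. In HoxB, the summit was at Hoxb4 and the brighter Hoxb5 probe set, with lower signals on either side. The place of Hoxb5 rests on that probe set: a dimmer one averaged 4.96 in Tifab KO and 5.23 in Tifab WT arrays, below Hoxb4 in both and, in Tifab KO arrays, below Hoxb3 at 5.08. Both summits are those of the probe sets used. A probe set naming Mira and Hoxa7, left out, averaged 7.86 in Tifab KO and 7.68 in Tifab WT arrays, above Hoxa9. Another, naming Hoxb3 and Hoxb2, averaged 5.88 in Tifab KO and 5.65 in Tifab WT arrays, above Hoxb4. Which strand that probe set reads was not tested. A signal also depends on the probes of a probe set, so the order of the genes is one of signals and not of transcript amounts. In the Tifab WT arrays the order was Hoxa9, Hoxa7, Hoxb5, Hoxa5, Hoxb4, Hoxb3, Hoxa10, Hoxb2, Hoxb6 and Hoxa3, from the highest to the lowest signal. The ranges over arrays did not overlap between Hoxa9 and Hoxa7, between Hoxa5 and Hoxb4, or between Hoxb4 and Hoxb3. The other neighbours in that order did not differ beyond their spread. Across the 10 genes, the mean signals of Tifab KO and Tifab WT correlated at Pearson's r = 0.973 and Spearman's rho = 0.915, a description over genes that are not independent replicates. Hoxb4 stood at place 3 of 10 in Tifab KO and at place 5 in Tifab WT arrays, and Hoxa9 and Hoxa7 led both orders.

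**Figure D1:**
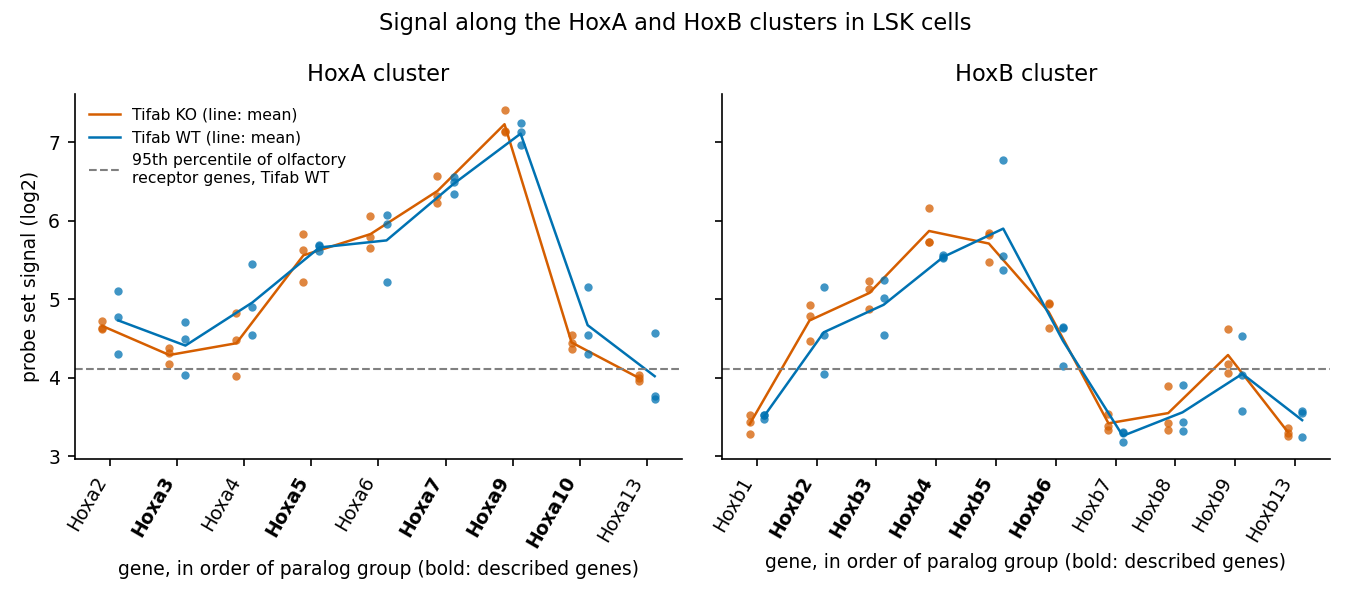
Log2 probe set signal (vertical axis) of the measured HoxA genes (left) and HoxB genes (right) in order of paralog group (horizontal axis), with Tifab KO in orange and Tifab WT in blue, a point per array, lines through the means, and a dashed line at 4.11, the 95th percentile of olfactory receptor genes in Tifab WT arrays. In both genotypes the HoxA signal peaks at Hoxa9 and drops at Hoxa10, and the HoxB signal peaks at Hoxb4 and the brighter Hoxb5 probe set.

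The other genes of these clusters were measured beside them. Hoxa4, Hoxa6 and Hoxa2 were above the olfactory receptor level in both groups, at 4.44, 5.83 and 4.66 in Tifab KO and 4.96, 5.75 and 4.73 in Tifab WT arrays. By group means, Hoxa2 lay above Hoxa3 in both genotypes. Hoxa13, Hoxb1, Hoxb7, Hoxb8 and Hoxb13 lay below it in both, and Hoxb9 was at 4.29 in Tifab KO and 4.05 in Tifab WT arrays, either side of it. Of the 26 measured Hox genes outside the 10, 8 were above the level in Tifab KO and 5 in Tifab WT arrays, while all 10 described genes were above it by their group means in both. As the 10 were chosen with earlier results of these data known, that contrast may restate the choice. The olfactory receptor level is a low one, passed by 54.9% of all genes in Tifab WT arrays. In single arrays, measured against that array's own percentile, 1 of the 10 fell under it in Tifab KO replicate 3 and 2 in Tifab WT replicate 3. Hoxa9 stood at percentile 86.7 of all genes in Tifab WT arrays, Hoxa7 at 79, Hoxb5 at 70.9 and Hoxa3, the dimmest, at 50.5.

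The question of the study for these genes is whether losing Tifab alters them. None of the 10 passed the adjusted threshold of 0.05 in limma, where 0% of all genes passed. By a looser rule, an unadjusted limma p under 0.05 (the nominal threshold below), 0 of 10 were higher in Tifab KO arrays, beside 4.74% of all genes, and 0 of 10 were lower, beside 5.51%. Their adjusted p ran from 0.531 to 0.885 in limma. Differences were positive for 5 genes and negative for 5, from -0.21 to 0.37 log2 units, with a median of 0.01, beside a median of 0 over all genes. The groups did not overlap for 1 gene in the higher direction (7.75% of all genes) and for 0 in the lower direction (8.37%). The 95% intervals of the 10 differences, from limma, lay between -0.94 and 0.80. A signal difference of 1 log2 unit in either direction was therefore outside each of them, with all 6 arrays in the fit. The bound of -0.94 was that of Hoxb5, whose difference ran from -0.46 to 0.24 when 1 array was left out. These intervals bound signals and not transcript amounts, since dim probe sets compress differences. In simulated data, each gene had independent noise with its own spread in these arrays. Genes picked at random over all signal levels were changed, 100 by 1 log2 unit and 100 by 2. At the adjusted threshold, 49% of the former and 91% of the latter were recovered. This limits what 3 against 3 arrays can show of smaller differences, but it is not a figure for these 10 probe sets.

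**Figure D2:**
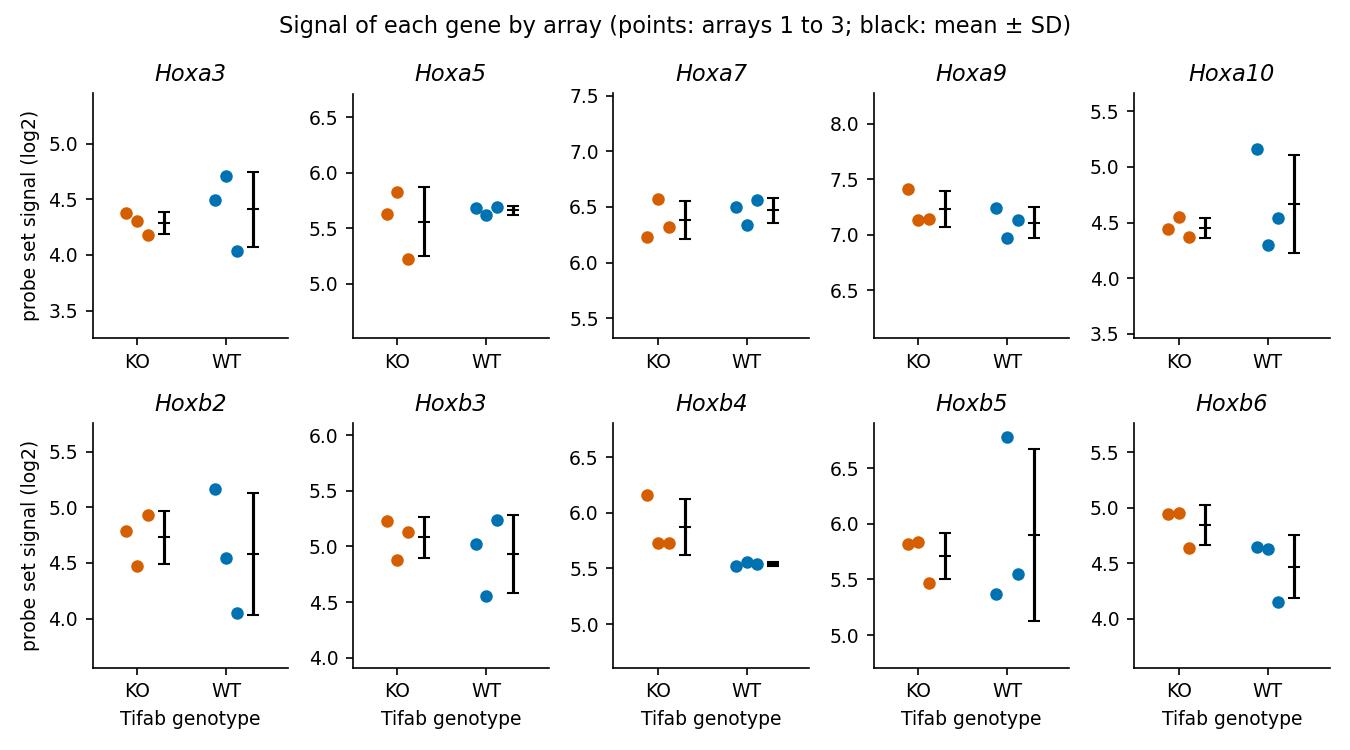
Log2 probe set signal (vertical axis, spanning the same width in every panel) of the 10 genes in Tifab KO (orange, left) and Tifab WT (blue, right), a point per array in replicate order, and mean ± SD in black (n = 3 each). Only the Hoxb4 points of the 2 genotypes are fully apart, higher in Tifab KO as for 7.75% of all genes, and the spread within Tifab WT is widest for Hoxb5.

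Among the HoxA genes, Hoxa9 is the one best known in blood, since mice that lack it have fewer progenitors and stem cells that repopulate poorly. It read 7.41, 7.13 and 7.14 in Tifab KO arrays, against 7.24, 6.97 and 7.13 in Tifab WT arrays. The arrays of both groups lay within the same narrow band, and the difference was 0.12 ± 0.15 (SE, adjusted p = 0.829 in limma) with a 95% interval of -0.22 to 0.45, the narrowest of the 10. Hoxa7, next to Hoxa9 in the cluster and often active with it in MLL leukemias, read 6.23, 6.57 and 6.32 in Tifab KO arrays, against 6.50, 6.34 and 6.56 in Tifab WT arrays. Its groups overlapped almost fully, with a difference of -0.09 ± 0.16 (SE). Hoxa10, whose forced expression in mouse marrow expands progenitors and blocks their maturation, read 4.44, 4.55 and 4.37 in Tifab KO arrays, against 5.16, 4.30 and 4.54 in Tifab WT arrays. Tifab WT replicate 1 stood above all others, and the difference of -0.21 ± 0.22 (SE) was 0.03 without it.

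Hoxa5, which in human progenitors favours myeloid over erythroid fate, read 5.63, 5.83 and 5.22 in Tifab KO arrays, against 5.68, 5.62 and 5.69 in Tifab WT arrays. The Tifab WT arrays had an SD of 0.04 (n = 3) while the Tifab KO arrays lay on both sides of them, with an SD of 0.31, the widest of the 10 in Tifab KO. The difference was -0.10 ± 0.19 (SE), or 0.07 without Tifab KO replicate 3, the lowest array. Hoxa3, needed for thymus and parathyroid formation, read 4.38, 4.31 and 4.18 in Tifab KO arrays, against 4.49, 4.71 and 4.04 in Tifab WT arrays. All Tifab KO values lay inside the range of the Tifab WT values, with a difference of -0.13 ± 0.19 (SE), or 0.02 without Tifab WT replicate 2. Of the 5 HoxA genes, 1 had a positive difference and their median was -0.10.

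In HoxB, Hoxb4, whose forced expression expands mouse hematopoietic stem cells, read 6.16, 5.73 and 5.73 in Tifab KO arrays, against 5.52, 5.56 and 5.54 in Tifab WT arrays. All 3 Tifab KO arrays were above all 3 Tifab WT arrays, which held for 7.75% of all genes. The Tifab WT arrays had an SD of 0.02 (n = 3), the smallest of any group among the 10 genes. The difference was 0.33 ± 0.17 (SE), or 1.26-fold, with a 95% interval of -0.05 to 0.71 and an adjusted p of 0.531 in limma. It was 0.19 without Tifab KO replicate 1, the array at 6.16. Hoxb6, which can hold mouse myeloid progenitors in an immature state when forced on, read 4.94, 4.95 and 4.64 in Tifab KO arrays, against 4.65, 4.63 and 4.15 in Tifab WT arrays. The groups touched at one point, where Tifab KO replicate 3 lay just under Tifab WT replicate 1. The difference of 0.37 ± 0.19 (SE), or 1.29-fold, was the largest of the 10 and had a 95% interval of -0.06 to 0.80 and an adjusted p of 0.531 in limma. Without Tifab WT replicate 3, the array at 4.15, it was 0.21. By unadjusted p these were the foremost of the 10, and they ranked 3371 and 3367 among the 22180 genes.

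Hoxb3, which acts with Hoxb4 in stem cell proliferation in mice, read 5.23, 4.88 and 5.13 in Tifab KO arrays, against 5.02, 4.55 and 5.24 in Tifab WT arrays. Hoxb2, better known from hindbrain patterning, read 4.79, 4.47 and 4.93 in Tifab KO arrays, against 5.16, 4.54 and 4.05 in Tifab WT arrays. In both, the Tifab KO arrays lay within the range of the Tifab WT arrays, with differences of 0.15 ± 0.21 and 0.15 ± 0.27 (SE). Each turned negative with 1 array left out, Hoxb3 at -0.05 without Tifab WT replicate 2 and Hoxb2 at -0.12 without Tifab WT replicate 3. Of the 5 HoxB genes, 4 had a positive difference and their median was 0.15.

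Hoxb5, a marker of long-term repopulating stem cells in mice, gave the least certain value. It read 5.82, 5.84 and 5.47 in Tifab KO arrays, against 5.37, 6.78 and 5.55 in Tifab WT arrays. Tifab WT replicate 2 stood far above the rest and widened the SD of the group to 0.77. The difference was -0.20 ± 0.33 (SE), or 0.24 without that array. Hoxb5 was the only one of the 10 with a second probe set of its own, which read 4.87, 5.11 and 4.90 in Tifab KO arrays, against 5.59, 5.03 and 5.07 in Tifab WT arrays. That probe set did not have Tifab WT replicate 2 apart from the others, and its difference was -0.27. By their numbering on the array the 2 probe sets sit among different genes: of the 10 nearest numbered probe sets with a known strand, 8 belonged to minus-strand genes for the brighter one and 9 to plus-strand genes for the dimmer one. Hoxb4, in the same cluster, lies on the plus strand. The brighter probe set may therefore read the strand opposite to the Hoxb5 messenger, which was not tested. A further 4 probe sets, which name a described gene together with another gene, were left out, with differences from -0.33 to 0.24. The one naming Mir10a and Hoxb4 had -0.33 and lay under the olfactory receptor level, at 2.16 in Tifab KO and 2.50 in Tifab WT arrays. The others had 0.24 for Hoxb3 and Hoxb2, 0.18 for Mira and Hoxa7, and 0.11 for Hoxa3 and 5730446D14Rik. For Hoxb4, Hoxa7 and Hoxa3 the sign was opposite to that of the gene's own probe set. By its number, the one naming Hoxb3 and Hoxb2 sits near the brighter Hoxb5 probe set. The one naming Hoxa3 and 5730446D14Rik is numbered near the probe set of Hoxaas3, an antisense transcript. Both may therefore read the strand opposite to the Hox messengers, which was not tested.

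**Figure D3:**
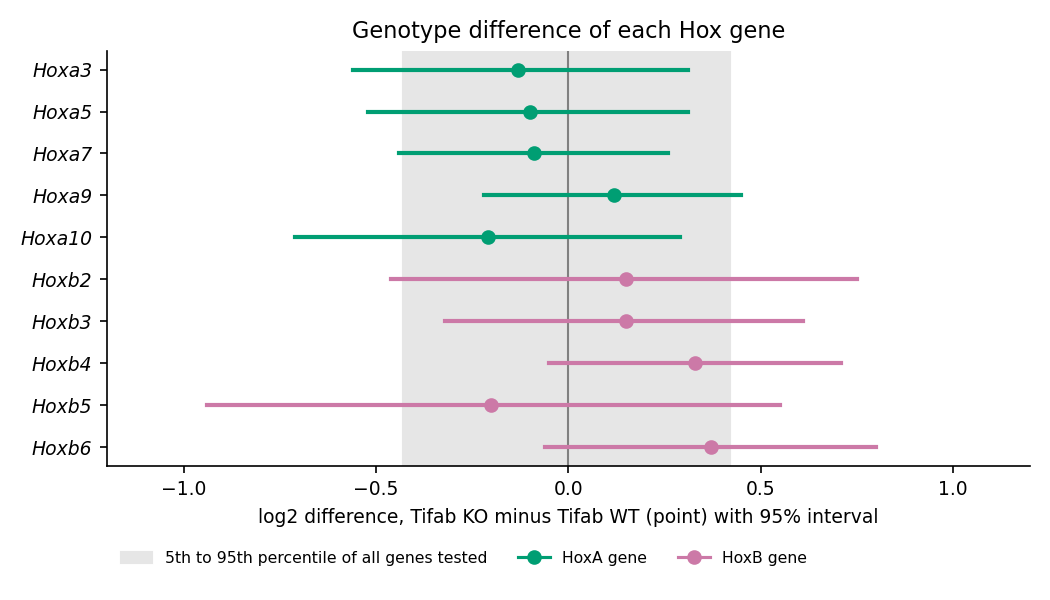
Log2 difference of Tifab KO minus Tifab WT (horizontal axis) of each gene (rows), as a point with its 95% interval from limma, in green for HoxA and pink for HoxB, over a grey band from -0.43 to 0.42 that holds the middle 90% of all genes tested. Every point lies inside the band and every interval crosses 0.

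The 10 genes did not go up and down together from array to array. Over their 45 pairs, the median Pearson's r across the 6 arrays was 0.05, with 24 pairs positive, and the range was -0.82 to 0.75. These pairs share arrays and come from 6 points each, so they are given as a description. The mean of the 10 genes, each centred on its own mean, differed little between arrays, at 0.11, 0.03 and -0.08 in Tifab KO arrays and 0.08, 0 and -0.14 in Tifab WT arrays. The genes outside the 10 that followed this mean most closely were Tdpoz4 and Clip4, with a Pearson's r of 0.995 over 6 arrays, and Cpt1c, with 0.987. The signals of Tdpoz4 (2.75 to 3.35) and Clip4 (3.67 to 3.80) lay under the olfactory receptor level, and such likeness over 6 arrays was picked from 22180 genes.

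The remaining Hox genes and the lists after them were compared in the same fit, where 4.74% of all genes were higher and 5.51% lower past the nominal threshold. Among the 12675 genes above the olfactory receptor level in either group, 6.09% were higher and 3.68% lower, with a median of 0.03. Several of the lists below hold mostly such genes. Of the 9 other HoxA and HoxB genes measured, 0 were higher and 0 lower past the nominal threshold, with a median difference of -0.03. Hoxa4, a neighbour of Hoxa5, read 4.48, 4.82 and 4.02 in Tifab KO arrays, against 4.54, 5.45 and 4.90 in Tifab WT arrays, the largest gap of these 9 at -0.52 ± 0.27 (SE, adjusted p = 0.532 in limma). Hoxb9, Hoxb13 and Hoxb7 had 0.24, -0.16 and 0.15. Of the 17 HoxC and HoxD genes measured, 2 were higher and 1 was lower past the nominal threshold. They were Hoxd8 at 0.36, Hoxc6 at 0.58 and Hoxc5 at -0.42, and Hoxc9 had -0.49. Hoxc6, Hoxc5 and Hoxc9 lay under the olfactory receptor level in both groups, while Hoxd8 read 4.59, 4.79 and 4.59 in Tifab KO arrays, against 4.24, 4.31 and 4.35 in Tifab WT arrays.

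The clusters also encode microRNAs, short RNAs that lower the output of matching messengers, and the mature forms from each cluster are shown because they share a seed. The seed (bases 2 to 8) is in capitals, the sequences are from RefSeq (GRCm38.p6), miR-196a-5p from Mir196a-1 in HoxB at chr11:96265187-96265208, plus strand, and miR-196b-5p from Mir196b in HoxA at chr6:52230129-52230150, minus strand.
mmu-miR-196a-5p: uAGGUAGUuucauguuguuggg
mmu-miR-196b-5p: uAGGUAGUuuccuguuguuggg
They differ by A12C, counted from the 5′ end with the base of miR-196a first. Mir196a-1 was the one of these with a probe set of its own, which reads the locus and not the mature microRNA. It read 4.62, 3.86 and 4.02 in Tifab KO arrays, against 3.58, 3.99 and 4.08 in Tifab WT arrays, a difference of 0.28 ± 0.23 (SE, adjusted p = 0.699 in limma) with overlapping groups. Hoxaas3, an antisense transcript of HoxA, had 0.16, and Gm53, a transcript numbered beside the HoxB genes, had 0.28.

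The cofactors of the Hox proteins are the TALE homeodomain genes. Of the 8 measured, 1 was higher and 0 lower past the nominal threshold, beside 4.74% and 5.51% of all genes. A positive difference was seen for 7, beside 50% of all genes. The median was 0.22, beside 0.03 over the genes above the olfactory receptor level in either group. Meis1, which binds DNA together with Hoxa9, read 8.63, 8.69 and 8.55 in Tifab KO arrays, against 8.12, 8.16 and 8.43 in Tifab WT arrays. All Tifab KO arrays were above all Tifab WT arrays, with a difference of 0.39 ± 0.13 (SE) that missed the threshold at an adjusted p of 0.384 in limma. Pbx3, the partner that joins Hoxa9 and Meis1 in leukemia cells, read 5.69, 5.29 and 5.55 in Tifab KO arrays, against 4.68, 5.79 and 5.18 in Tifab WT arrays, a difference of 0.30 ± 0.26 (SE). Pknox1 had 0.25 and Meis2, dim in these cells, -0.22.

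Among 22 genes of the MLL complexes and other activators of Hox genes, 0 were higher and 0 lower past the nominal threshold, with 11 positive and 11 negative differences and a median of 0.01. Kmt2a, which encodes MLL itself, read 7.57, 7.83 and 7.09 in Tifab KO arrays, against 7.09, 7.22 and 7.37 in Tifab WT arrays (0.27 ± 0.20, SE). Men1, its menin subunit, had -0.03. Dot1l, the H3K79 methyltransferase of the active Hox clusters, had -0.33 ± 0.15 (SE, adjusted p = 0.489 in limma) with groups that did not overlap. Its cofactor gene Mllt10 had 0.28, also with groups that did not overlap. Psip1, which tethers the menin and MLL complex to chromatin, had 0.32, and Kansl1 -0.41. Cdx4, an upstream activator in the embryo, lay under the olfactory receptor level.

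Of 25 Polycomb and ASXL genes, 1 was higher and 1 lower past the nominal threshold, with a median of -0.02. Bap1, which encodes the deubiquitinase that removes the Polycomb mark from histone H2A, read 6.98, 6.65 and 7.06 in Tifab KO arrays, against 7.43, 7.36 and 7.44 in Tifab WT arrays. Every Tifab KO array was below every Tifab WT array, with a difference of -0.51 ± 0.15 (SE, adjusted p = 0.356 in limma). Jarid2, an accessory subunit of the Polycomb methyltransferase, had 0.38 ± 0.17 (SE), also with groups that did not overlap. Phf19 had -0.34 and Pcgf5 -0.29. Ezh2, the catalytic subunit of that methyltransferase, had -0.12 and Bmi1, which represses the Ink4a locus in stem cells, -0.01.

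Among 19 genes reported as targets of HOXA9 and MEIS1, a list that holds Meis1 too, 3 were higher and 2 lower past the nominal threshold, beside 4.74% and 5.51% of all genes, and 0 passed the adjusted threshold in limma. Cdk6, a G1 kinase gene, read 9.38, 9.14 and 9.50 in Tifab KO arrays, against 9.04, 9.12 and 8.89 in Tifab WT arrays, a difference of 0.32 ± 0.13 (SE). Myb, a progenitor transcription factor gene, had 0.29 and overlapping groups. Sox4 had -0.36 ± 0.13 (SE) and Hlf, a stem cell transcription factor gene, -0.33 ± 0.13 (SE), both with groups that did not overlap. Over the list, groups did not overlap for 3 genes in the higher direction, Cdk6 and Meis1 among them, and for 3 in the lower. Of all genes, 7.75% and 8.37% did so. Flt3, the receptor gene of lymphoid-primed progenitors, had -0.24 and Cd34 0.13. The median of the list was 0.03.

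The 20 genes that flank the clusters, 5 on either side of each in the RefSeq gene order of GRCm38.p6, had a median of 0.03, with 2 higher and 0 lower past the nominal threshold. The immediate neighbours on the low-numbered side of each cluster, Skap2 next to HoxA and Skap1 next to HoxB, both adaptor genes, had 0.15 and 0.07. Atp5g1, a subunit gene of mitochondrial ATP synthase and separated from the far end of HoxB by 2 measured genes, read 4.70, 4.53 and 5.09 in Tifab KO arrays, against 3.88, 3.44 and 3.20 in Tifab WT arrays, where it lay under the olfactory receptor level. Its difference of 1.26 ± 0.22 (SE, adjusted p = 0.297 in limma) was the largest of the 20, and Calcoco2 and Ttll6, which lie between it and the cluster, had -0.05 and 0.28. Hnrnpa2b1, which encodes an RNA-binding protein, had 0.23 and Jazf1 0.38, both with groups that did not overlap, and Hibadh had -0.40.

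**Figure D4:**
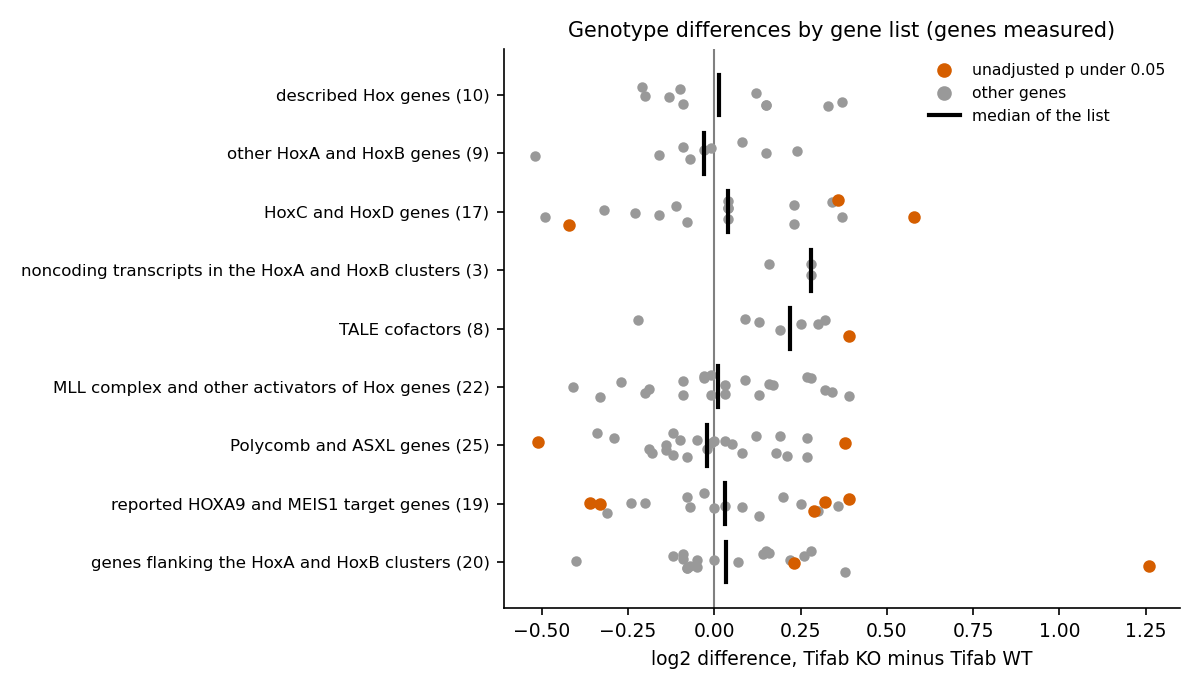
Log2 difference of Tifab KO minus Tifab WT (horizontal axis) of every measured gene of each list (rows, number of genes in brackets), in orange past the nominal threshold and in grey otherwise, with a black bar at the list's median. The described Hox genes hold no orange point and have a median of 0.01, and Atp5g1 at 1.26 is the single point far from the rest.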

How the data were processed

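The deposited values are log2 signals of 41345 probe sets on 6 arrays, made by the authors with Affymetrix Expression Console per the submitters' processing notes. The sources used here do not give the background correction, summary method or normalization. Probe sets were named from the platform annotation: 23521 had 1 symbol, 1814 several and 16010 none. Of those with 1 symbol, 23328 matched RefSeq (GRCm38.p6). The brightest probe set over all 6 arrays stood for each of 22180 genes. Tifab KO was compared with Tifab WT in limma 3.58.1 (R 4.3.3; lmFit, eBayes with intensity trend, genotype only), two-sided, with Benjamini-Hochberg adjustment over all genes and a threshold of 0.05, checked on simulated data. The members, the lists and the alternatives were chosen with earlier results of these data known. Named beside the 10 genes and Tifab were the up to 4 genes with the smallest p of each list other than the cell type markers, every further list gene at an unadjusted p under 0.05, other HoxA and HoxB genes for their levels, the 3 genes most like the mean of the 10, and genes set by name, of which Meis1, Kmt2a, Men1, Bmi1, Ezh2, Cdx4, Flt3, Cd34, Skap1 and Skap2 are reported. Calcoco2 and Ttll6 were named for their position, and Mmp8, S100a8 and S100a9 after their values were seen. The labels do not say whether sorts were independent, so p-values measure the spread between these samples. The number of arrays limits the precision.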

Additional observations from a re-analysis of the deposited data

How the results depend on the processing

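Under all 15 alternatives, 0 of the 10 genes had an unadjusted p under 0.05 in limma (lowest 0.0565, lowest adjusted p 0.502). These changed the spread model (no trend, or robust), weighted the arrays, rescaled the values (quantile, median or cyclic loess), dropped genes below percentile 40 of signal, averaged all probe sets of a gene, added the replicate block, or left out each of the 6 arrays. Of 150 values, 144 kept their direction. Many of these could not change: the spread models, the replicate block and the dropping of dim genes leave a difference as it is. Averaging probe sets could move only that of Hoxb5. The other 6 values came from leaving out 1 array. Of the 10 genes, 4 kept their direction under every alternative. Over the arrays left out, Hoxa3 ran from -0.31 to 0.02 (Tifab WT replicates 3 and 2), Hoxa5 from -0.24 to 0.07 (Tifab KO replicates 2 and 3), Hoxa10 from -0.39 to 0.03 (Tifab WT replicates 2 and 1), Hoxb2 from -0.12 to 0.44 (Tifab WT replicates 3 and 1), Hoxb3 from -0.05 to 0.30 (Tifab WT replicates 2 and 3), and Hoxb5 from -0.46 to 0.24 (Tifab WT replicates 1 and 2). The median of the 10 genes ran from -0.07 without Tifab WT replicate 3 to 0.11 without Tifab WT replicate 1. The order of the genes by Tifab WT signal was the same after quantile normalization and cyclic loess, and Hoxa5 and Hoxb5 exchanged places when probe sets were averaged. The labels do not say whether a replicate number marks a shared batch. The deviations of same-numbered arrays correlated across genes at 0.02, -0.031 and -0.088. For differently numbered arrays the values ran from -0.074 to 0.107. With the replicate number as a block, 0 genes passed over all genes tested, 2119 had an unadjusted p under 0.05 where 2274 had without it, and the median of the 10 genes was 0.01. Dim probe sets compress differences, which bears on Hoxa3, Hoxb6, Hoxb2, Hoxa10 and Hoxb3, within 1 log2 unit of the olfactory receptor level.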
